A study of Mus musculus with 4 samples.

Results

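The 6 genes described here encode the receptors through which mouse cells bind immunoglobulin G (IgG). They are the activating receptor genes Fcgr1, Fcgr3 and Fcgr4, the signalling gamma chain gene Fcer1g, the inhibitory receptor gene Fcgr2b, and Fcgrt, which encodes the heavy chain of the neonatal Fc receptor (FcRn). They were picked by symbol, 6 of the 31053 genes counted in each of 2 single-cell libraries. One library came from ovaries of 15-month-old virgin wild-type C57BL/6J mice, harvested at 14 to 17 months, and the other from ovaries of 3-month-old mice of the same strain and genotype, harvested at 2 to 3 months. The cells had been sorted as CD45+CD11b+, the surface phenotype of myeloid cells. Each library joined 3 pools of animals, marked with hashtag antibodies and mixed before a single sort, so that age and library cannot be told apart and each p-value below measures the spread between pools only. The labels differ on the animals: in 1 place every pool holds 2 mice, in another the 5 old animals made 2 pools of 2 and 1 pool of 1, without saying which.

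Of 8074 barcodes, 6281 carried 1 clear hashtag and passed the cell filter, 4100 at 15 months and 2181 at 3 months. The pools held 767, 2437 and 896 cells at 15 months and 725, 479 and 977 cells at 3 months, with 4627201 to 25840364 unique molecules (UMIs) each. The libraries shared 3 barcodes, of which 2 were among the kept cells. Cells were grouped into 21 clusters with the 6 genes left out of the clustering, and classes were called X-like from other markers. Despite the sort, some clusters carried markers of B, T and natural killer (NK) cells, stroma, endothelium and steroid-producing theca or luteal cells. Levels below are UMI counts of a gene for every 1000000 UMIs of a class in a pool (CPM), and they are compared between cells for 1 gene. Counts of different genes are set against each other only in the ratio of activating to inhibitory receptors. Where the pools of the ages are said not to overlap, the share of all genes that do the same was not counted. Such a separation therefore describes the gene named and does not set it apart from other genes.

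Fc gamma receptors link antibody to effector cells: an immune complex that clusters an activating receptor makes Src and Syk family kinases act on the tyrosine motif of the shared gamma chain, which leads to uptake, oxidative burst and cytokine release. The inhibitory receptor carries its own motif, which recruits the lipid phosphatase SHIP and raises the threshold for activation, so that the balance of both kinds sets the response to IgG. FcRn works inside the cell, where it binds IgG in acidic endosomes and returns it to the surface, away from lysosomes. In mice macrophages carry the full set, NK cells are known for Fcgr3 and B cells for Fcgr2b.

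In GENCODE M21 on GRCm38, 4 of the genes lie within 275749 bases of chromosome 1, in the order Fcgr2b (170958617-170976547, minus strand), Fcgr4 (171018920-171029761, plus strand), Fcgr3 (171051174-171064935, minus strand) and Fcer1g (171229572-171234365, minus strand). Fcgr1 lies on chromosome 3 (96282909-96293969, minus strand) and Fcgrt on chromosome 7 (45092990-45103851, minus strand). The bases just before Fcgr4 are shown because the results below turn on this gene, with those before Fcgr1 as an activating receptor gene that was lower, where Fcgr4 was higher, in non-classical monocyte-like than in macrophage-like cells. They come from RefSeq on GRCm38.p6, at chr1:171018676-171018919 on the plus strand (244 bases) and chr3:96293970-96294219 on the minus strand (250 bases), and capitals mark motif matches.
Fcgr4: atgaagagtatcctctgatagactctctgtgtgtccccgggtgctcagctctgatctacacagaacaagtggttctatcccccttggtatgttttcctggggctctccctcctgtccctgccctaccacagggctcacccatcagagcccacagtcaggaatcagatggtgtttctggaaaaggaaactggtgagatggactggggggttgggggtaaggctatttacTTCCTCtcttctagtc
Fcgr1: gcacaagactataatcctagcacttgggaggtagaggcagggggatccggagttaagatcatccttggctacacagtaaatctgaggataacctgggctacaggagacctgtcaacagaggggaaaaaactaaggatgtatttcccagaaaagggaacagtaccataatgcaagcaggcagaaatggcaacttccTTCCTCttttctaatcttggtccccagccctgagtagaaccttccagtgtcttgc
The search covered both strands for GAGGAA, the box of the myeloid factor PU.1, and for TTGCNNAA, a C/EBP site. The Fcgr4 window held 1 PU.1 box, read as TTCCTC, at bases -22 to -17 from the RefSeq start. The Fcgr1 window held 1 PU.1 box at -55 to -50. Among 32851 promoter windows of 250 bases, 23.25% held the PU.1 box and 9.564% the C/EBP site. The windows of Fcgr3 held a PU.1 box and a C/EBP site and that of Fcgrt a C/EBP site, while those of Fcgr2b and Fcer1g held neither. The Fcgr3 windows (171059404-171059653 and 171059395-171059644) overlap each other and hold the same sites. They and the Fcgr2b window (170976072-170976321) lie before RefSeq starts but inside the GENCODE spans given above. All of them overlap annotated exons of their own gene, as do the windows of Fcer1g and Fcgrt. A match describes the letters of a window and says nothing of binding in these cells.

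The class against which the others were compared was macrophage-like, 1964 cells in 4 clusters, whose markers C1qa, C1qb, C1qc, Adgre1, Mrc1, Apoe, Mertk, Trem2 and Ms4a7 were all seen in every pool and summed to 38590 to 43110 CPM at 15 months and 25790 to 50520 CPM at 3 months. Cluster 5 (1128 cells, led by Vcam1, Ccl8 and C1qa) and cluster 1 (636 cells, led by Arg1, Spp1 and Gpnmb) held most of it, in proportions that differed between pools: the pools had 108, 403 and 158 cluster 5 cells at 15 months and 123, 93 and 243 at 3 months, beside 70, 230 and 41 cluster 1 cells at 15 months and 145, 130 and 20 at 3 months. Cluster 11 (159 cells, led by Lipg, Fcrl5 and Fcgr4) and cluster 16 (41 cells) made up the rest. Cluster 11 scored highest for macrophage markers, but none of them was among its 10 leading genes, so its place in the class is in doubt. The age ratio of Fcgr4 in the class is given with and without it, while all tests of other classes over macrophage-like cells keep it in. A value for the whole class therefore mixes clusters in different proportions, and cluster 5 is given beside it.

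No Fc receptor gene passed the test of age in macrophage-like cells (edgeR quasi-likelihood test with Benjamini-Hochberg adjustment over all genes, threshold 0.05). The background was as low: 6 of 8941 genes passed, 0.0671%. At an unadjusted p under 0.05 there were 2 members, Fcgr1 and Fcgr4, beside 1350 genes, and DESeq2 called 0 members and 64 genes. In the other 6 classes with at least 10 cells in every pool, 0 members passed either, by edgeR or by DESeq2: the background share was 0.451% in non-classical monocyte-like, 0.239% in neutrophil-like, 0.789% in NK cell-like, 0.196% in cDC2-like (conventional dendritic cells of type 2), 0.0672% in cycling and 0.459% in stroma or fibroblast-like cells. At an unadjusted p under 0.05 these classes had 2, 0, 0, 1, 2 and 1 members in that order, of 6, 3, 3, 6, 6 and 6 with enough counts to be tested, and Fcgr4 was among them in each of the 4 classes that had any.

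**Figure D1:**
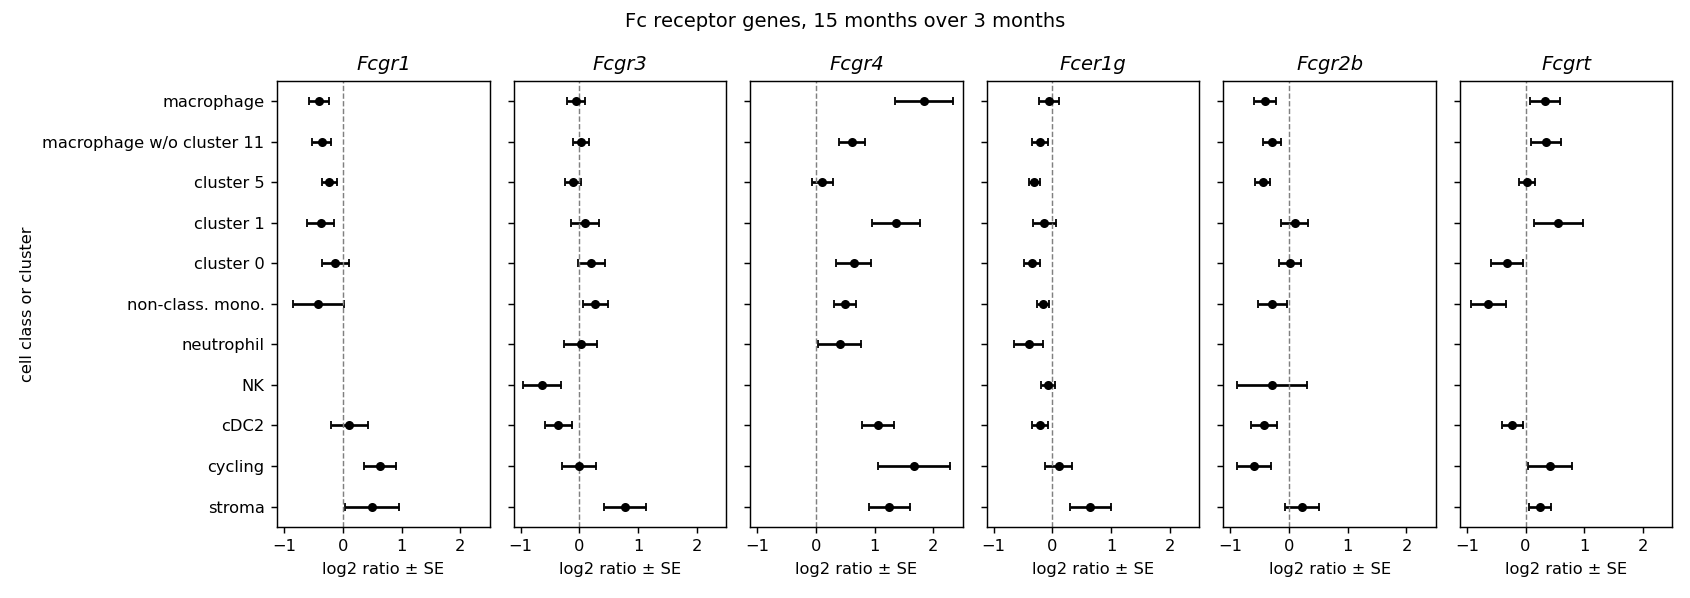
Points are edgeR log2 ratios of 15 over 3 months with SE bars for each gene (panels) in each cell class or cluster (rows), from 3 pools of each age; rows without a point had too few counts. Fcgr4 lies right of 0 in every row shown, from 0.11 in cluster 5 to 1.84 in macrophage-like cells, and no point passed the adjusted threshold.

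Fcgr1, the high-affinity receptor for monomeric IgG, was highest in macrophage-like cells among the 7 classes present in every pool. Macrophage-like cells had 156, 233 and 173 CPM at 15 months and 253, 237 and 219.8 CPM at 3 months. The 15-month pools overlapped the 3-month ones only through pool 2, and the means were 187 ± 40.6 CPM at 15 months and 237 ± 16.5 CPM at 3 months (SD, n = 3 pools each). The log2 ratio was -0.40 ± 0.17 (SE, edgeR adjusted p = 0.319). In cluster 5 the pools had 208, 246 and 200.1 CPM at 15 months and 251, 259.8 and 227 CPM at 3 months, which overlapped (log2 ratio -0.23 ± 0.13, edgeR adjusted p = 0.644). The opposite sign was seen in cycling cells, with 207, 182 and 112 CPM at 15 months and 109, 78.5 and 114 CPM at 3 months (log2 ratio 0.64 ± 0.27, edgeR adjusted p = 0.476), where pool 3 at 15 months lay among the 3-month values. The cycling class was named by cell cycle genes. Its summed macrophage markers were 17620 to 26430 CPM at 15 months and 11080 to 25680 CPM at 3 months. Their part in its Fc receptor levels was not tested.

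Across these classes, Fcgr1 was ordered macrophage-like, cycling, non-classical monocyte-like, stroma, cDC2-like, neutrophil-like and NK cell-like. Every one of the other 6 classes lay below macrophage-like cells when tested with the pool as a block: the log2 ratio over macrophage-like cells was -0.79 ± 0.17 in cycling cells (edgeR adjusted p = 0.00235), -2.15 ± 0.18 in non-classical monocyte-like cells (1.29e-10), -3.02 ± 0.34 in neutrophil-like cells (6.71e-15) and -4.77 ± 0.31 in NK cell-like cells (7.99e-12). Classical monocyte-like cells, which had 10 cells in only 5 pools, were close to macrophages (log2 ratio -0.30 ± 0.16, edgeR adjusted p = 0.142), with 164 ± 50.7 CPM at 15 months (SD, n = 3 pools) and 203 ± 62.1 CPM at 3 months (SD, n = 2 pools). So was cluster 0 (448 cells, Ccr2 and Ms4a4c among its leading genes), which scored highest for macrophage markers but met no class name, at 0.28 ± 0.12 (edgeR adjusted p = 0.112).

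Fcgr3, the low-affinity activating receptor, led in neutrophil-like and macrophage-like cells, before cycling, non-classical monocyte-like, stroma, cDC2-like and NK cell-like cells. Its levels in macrophage-like cells were 475, 578 and 414 CPM at 15 months and 426, 498 and 534 CPM at 3 months. Neutrophil-like cells had 508, 499.8 and 528 CPM at 15 months and 492, 479 and 524 CPM at 3 months. The value of 3-month pool 2 rests on 10 cells with 10 UMIs of Fcgr1, Fcgr3 and Fcgr4 together. The ages overlapped in both classes, with log2 ratios of -0.06 ± 0.16 in macrophage-like cells (edgeR adjusted p = 0.879) and 0.02 ± 0.29 in neutrophil-like cells (0.998). Neutrophil-like over macrophage-like cells gave a log2 ratio of 0.11 ± 0.24 (edgeR adjusted p = 0.717), whose sign turned with RLE scaling (-0.23) and in DESeq2 (-0.21), and classical monocyte-like cells gave -0.05 ± 0.14 (0.809). Cluster 9 (125 cells, 106 of them from 15-month pool 2) scored highest for neutrophil markers but met no class name. Over all its cells it had 300 CPM of Fcgr3, against 506 CPM in neutrophil-like cells. Relative to macrophage-like cells, Fcgr3 fell in non-classical monocyte-like cells (-1.61 ± 0.13, edgeR adjusted p = 5.95e-11), cDC2-like cells (-1.73 ± 0.15, 2.14e-07) and, further, in mature dendritic cell-like cells (-4.00 ± 0.29, 2.72e-09).

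NK cells are the textbook carriers of Fcgr3 together with the gamma chain. Here NK cell-like cells had 55.9, 70.1 and 53.9 CPM of Fcgr3 at 15 months and 62.8, 81.7 and 136 CPM at 3 months. That was below macrophage-like cells in all 6 pools (log2 ratio -2.90 ± 0.17, edgeR adjusted p = 9.71e-13). With each cell thinned to 1000 UMIs, 7.07% of 410 NK cell-like cells had an Fcgr3 UMI (95% Wilson interval 4.97 to 9.97%; 18.3% unthinned, median 3532 UMIs). Endothelial cell-like cells, which should lack it, had 4.35% (1.87 to 9.78%; 21.7% unthinned, median 8993 UMIs). At 2000 UMIs a cell, with cells of fewer UMIs left out, the shares were 12.4% in NK cell-like and 11.6% in endothelial cell-like cells. The NK share thus stood within the interval of this background at both depths, but the endothelial cell-like cells carried more macrophage RNA, with summed macrophage markers of 2934 to 7046 CPM, against 104 to 4238 CPM in NK cell-like cells. The intervals cover counting error only.

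Fcgr4, the activating receptor for IgG2a, IgG2b and IgG2c, was ordered non-classical monocyte-like, macrophage-like, neutrophil-like, cycling, stroma, cDC2-like and NK cell-like. The place of macrophage-like cells in this order depended on cluster 11. Their mean over 6 pools was 323 CPM with it and 162 CPM without it. The means were 178 CPM in neutrophil-like and 500 CPM in non-classical monocyte-like cells. The class tests of Fcgr4 were not run without cluster 11. Non-classical monocyte-like cells had 506, 528 and 764 CPM at 15 months and 385, 346 and 474 CPM at 3 months. The ages did not overlap, at 599 ± 143 CPM at 15 months and 401 ± 65.8 CPM at 3 months (SD, n = 3 pools each), yet the log2 ratio of 0.49 ± 0.18 did not pass (edgeR adjusted p = 0.317). Their summed macrophage markers were 5479 to 8843 CPM at 15 months and 3973 to 5618 CPM at 3 months, and their part in this difference was not tested. Over macrophage-like cells the class was 0.83 ± 0.18 higher on the log2 scale (edgeR adjusted p = 0.000463). Without the pool as a block this was 0.56 and did not pass (edgeR adjusted p = 0.283), and macrophage-like cells of 15-month pool 3 held more than any non-classical monocyte-like pool. At 1000 UMIs, 34.1% of 552 non-classical monocyte-like cells had an Fcgr4 UMI (78.3% unthinned, median 4200 UMIs), against 3.48% of endothelial cell-like cells.

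Macrophage-like cells had 345, 228 and 958 CPM of Fcgr4 at 15 months and 117, 102 and 189 CPM at 3 months. All 15-month pools lay above all 3-month pools, a separation whose share over all genes was not counted, and pool 3 at 15 months stood far above the rest. The means were 510.3 ± 392 CPM at 15 months and 136 ± 46.3 CPM at 3 months (SD, n = 3 pools each). Their log2 ratio was 1.84 ± 0.50 and missed the threshold (edgeR adjusted p = 0.259). Without 15-month pool 3 the ratio was 1.00 and without cluster 11 it was 0.61 ± 0.22 (edgeR adjusted p = 0.340). The pools without cluster 11 had 179, 212 and 206 CPM at 15 months and 117, 86.6 and 171 CPM at 3 months, still without overlap. With the pool number as a block the whole-class ratio was 1.62 and passed (edgeR adjusted p = 0.0346), although the numbers do not mark shared animals. At hashtag ratio 5 in place of 3 (the count of the top over the next hashtag) the age ratio was 0.07. At hashtag ratio 2 it was 0.57, and with Fc receptor genes allowed in clustering it was 0.65. The class then held 126, 199 and 208 cells of 15-month pool 3 in that order, against 330. Cells matching cluster 11 still formed a cluster at these settings, of 175, 168 and 147 cells in that order. The part of its class name in these ratios was not tested.

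Within the class, Fcgr4 did not follow age in the cluster with the highest complement markers. Cluster 5 had 263, 225 and 228 CPM at 15 months and 273, 175 and 178 CPM at 3 months, with a log2 ratio of 0.11 ± 0.18 (edgeR adjusted p = 0.911) whose sign turned in 5 alternatives, and the pools overlapped. Cluster 1 had 106, 196 and 129.6 CPM at 15 months and 28.5, 56.1 and 119 CPM at 3 months, with a log2 ratio of 1.36 ± 0.41 (edgeR adjusted p = 0.277), and only 15-month pool 1 lay below the highest 3-month pool. With no filter on low counts the cluster 1 ratio passed (edgeR adjusted p = 3.76e-05), the 1 alternative of 16 in which it did. Cluster 0 had 155, 424 and 298 CPM at 15 months and 229.8, 144 and 198 CPM at 3 months, and its ratio of 0.64 ± 0.29 did not pass either (edgeR adjusted p = 0.571). The background shares of genes called were 0.101% in cluster 5, 0.163% in cluster 1, 0.292% in cluster 0 and 0.0788% in the class without cluster 11, and 0 members were called in each, by edgeR or by DESeq2.

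Cluster 11 had the highest Fcgr4 level of the 21 clusters, 3385 CPM over all its cells (95% Poisson interval 3269.9 to 3503 CPM), against 520 CPM (492 to 548 CPM) in the non-classical monocyte-like cluster that came next. In the pools with at least 10 of its cells, it had 3008 CPM in 15-month pool 1 (370 UMIs in 20 cells) and 3575 CPM in 15-month pool 3 (2667 UMIs in 129 cells). The remaining pools held 5 of its cells at 15 months (150 Fcgr4 UMIs) and 2 and 3 at 3 months (36 and 51 Fcgr4 UMIs). Cluster 11 made up 9.57% (95% Wilson interval 6.28 to 14.3%), 0.758% (0.324 to 1.76%) and 39.1% (34.0 to 44.5%) of macrophage-like cells at 15 months and 0, 0.873 and 1.12% at 3 months. Of its 159 cells, 154 came from the 15-month library and 129 from 1 pool of it. Whether that pool is the one from a single animal is not given, and the part of an animal in this result was not tested. Fcgr4 was left out of the clustering, but it leads the cluster, so these levels describe the cluster and no test is given.

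**Figure D2:**
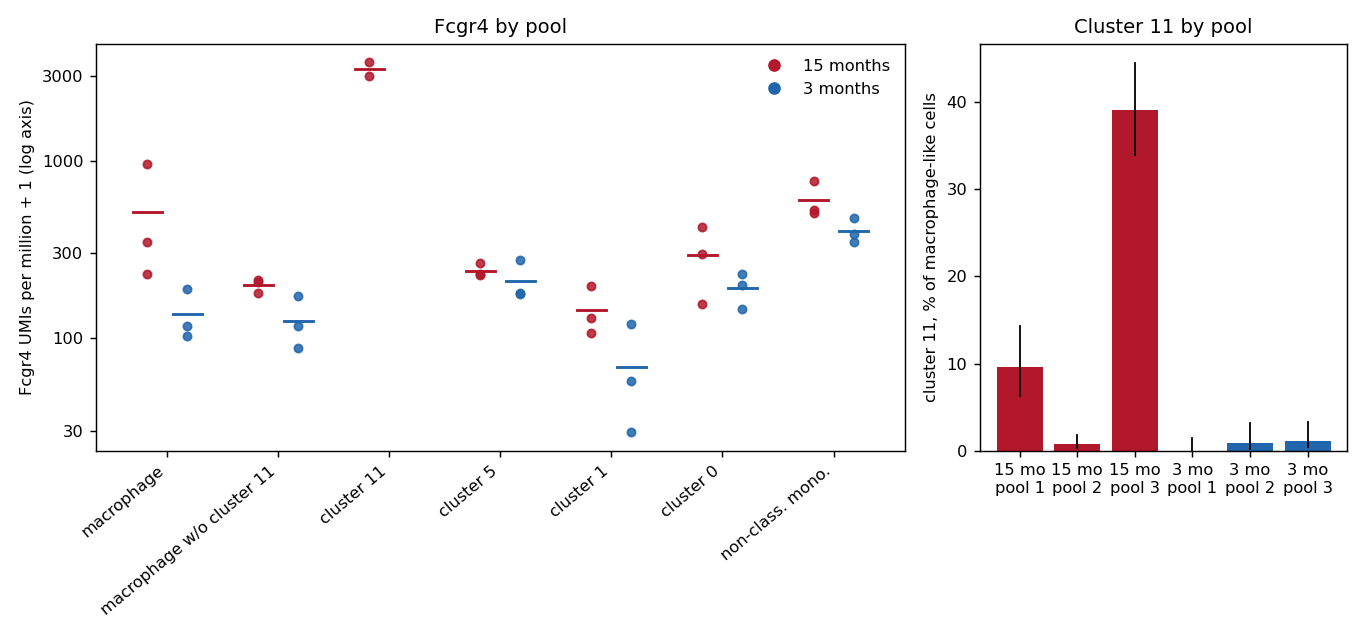
Left, Fcgr4 CPM + 1 (log axis) in each pool for macrophage-like cells, their clusters and non-classical monocyte-like cells, 15 months left of 3 months, with a line at the mean; cluster 11 is drawn for pools with at least 10 of its cells. Right, the share of macrophage-like cells in cluster 11 in each pool with its 95% Wilson interval; 15-month pool 3 stands at 39.1% and the 3 pools at 3 months at 1.12% or less.

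The cells of cluster 11 paired high Fcgr4 with lower levels of Fcgr1, Fcgr2b and Fcgr3 than cluster 5. At 1000 UMIs a cell, 90.6% had an Fcgr4 UMI and 1.89% an Fcgr2b UMI, against 20.1% and 27.0% in cluster 5 (unthinned 100% and 10.1% in cluster 11, median 5240 UMIs, and 70.1% and 81.0% in cluster 5, median 9352 UMIs). Fcgr4 without Fcgr2b was seen in 141 of 159 cluster 11 cells and in 170 of 1128 cluster 5 cells, while Fcgr2b without Fcgr4 was seen in 0 and in 248. Fcgr3 was seen in 13.2% of cluster 11 cells and 44.9% of cluster 5 cells, Fcgr1 in 10.1% and 20.7%, and Fcgrt in 12.6% and 24.3%. At 2000 UMIs a cell, with cells of fewer UMIs left out, the shares were larger but in the same order. They were 4.38% and 46.9% for Fcgr2b, 18.2% and 67.4% for Fcgr3, 21.2% and 37.8% for Fcgr1 and 24.1% and 38.6% for Fcgrt. Fcgrt was lower than in cluster 5 but not lower than in the rest of the class: over all its cells cluster 11 had 179.9 CPM, against 274 CPM in cluster 5, 42.2 CPM in cluster 1 and 179.9 CPM in the class without cluster 11. The gamma chain went the other way: Fcer1g was at 6553 and 8023 CPM in the 2 cluster 11 pools, against 3226 to 3531 CPM in cluster 5 at 15 months.

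**Figure D3:**
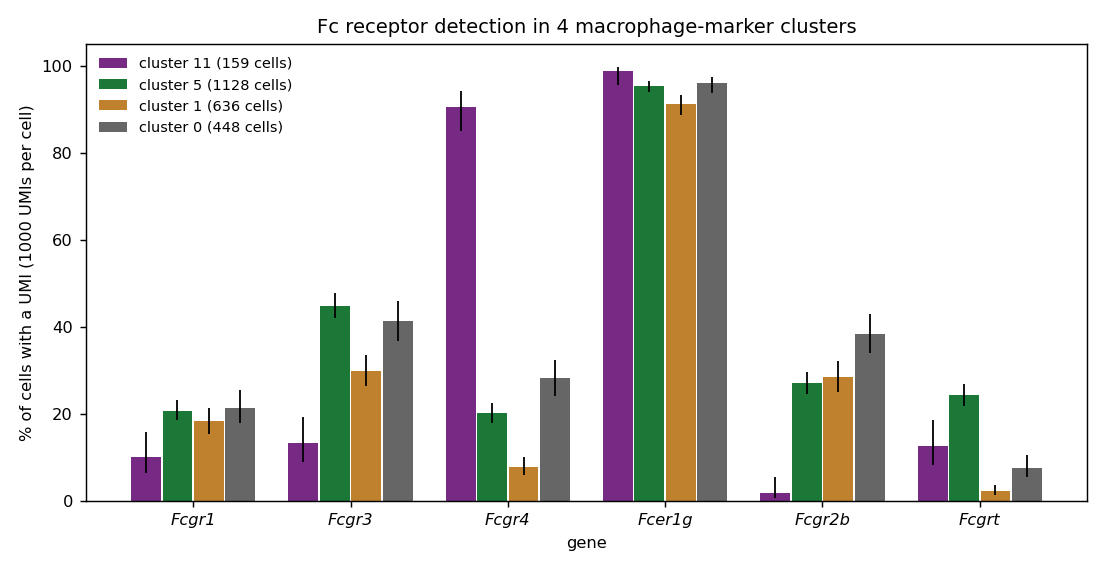
Bars give the percent of cells with at least 1 UMI of each gene after every cell was thinned to 1000 UMIs, in cluster 11, cluster 5, cluster 1 and the unnamed cluster 0, with 95% Wilson intervals that cover counting error only. Cluster 11 is the highest for Fcgr4, at 90.6%, and the lowest for Fcgr2b, at 1.89%.

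Markers of 23 cell types were summed in cluster 11. All 9 macrophage markers were seen, summing to 24280 to 24700 CPM in its 2 pools, below the 38590 to 43110 CPM of the class at 15 months. Of 7 B cell markers 3 were seen, summing to 569 to 764 CPM (167 to 202 CPM in the class without cluster 11 at 15 months), of 8 neutrophil markers 4 to 5 (97.6 to 106 CPM), and of 9 non-classical monocyte markers 7 to 9 (1106 to 1402 CPM, against 316 to 436 CPM in the class without cluster 11 at 15 months). Markers of conventional dendritic cells of type 1 were raised as well, 4 to 6 of 7 being seen at 495 to 520 CPM, against 145 to 156 CPM in the class without cluster 11 at 15 months and 239 to 278 CPM in cDC2-like cells at 15 months. Mature dendritic, plasma, mast, endothelial and granulosa cell marker sums also lay above that class, at 73.2 CPM or less. The part of these markers in the Fcgr4 level was not tested. At 15 months IgG2b heavy chain transcripts (Ighg2b) were seen in 53 of its 154 cells, 34.4%, with 240 UMIs or 262 CPM, against 6 of 669 cluster 5 cells (0.721 CPM) and 28 of 245 B cell-like cells (36.0 CPM). The light chain gene Igkc, by contrast, had 3 UMIs in cluster 11, or 3.27 CPM, and 17020 CPM in B cell-like cells, and Cd79a, Ms4a1 and Jchain had 0 UMIs there. Other B cell genes had more CPM in cluster 11 than in cluster 5 at 15 months. Cd79b, a chain of the B cell receptor complex, was at 276 CPM, against 53.4 CPM in cluster 5 and 1403 CPM in B cell-like cells. It was in 66.9% of cluster 11 and 42.9% of cluster 5 cells, unthinned. The IgM heavy chain gene Ighm was at 433 CPM, against 201.5 CPM in cluster 5 and 5906 CPM in B cell-like cells. Its unthinned shares were close, 79.2% in cluster 11, 75.0% in cluster 5 and 75.3% in cluster 0. IgG2b is a ligand of Fcgr4; the source of these reads was not tested.

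Fcgr4 had positive age ratios in the other classes too, none of them past the test. cDC2-like cells had 81.1, 54.3 and 87.5 CPM at 15 months and 22.0, 31.0 and 37.4 CPM at 3 months (log2 ratio 1.06 ± 0.27, edgeR adjusted p = 0.229), a direction that turned when the cells with the highest doublet scores were left out (-0.29). Stroma or fibroblast-like cells had 89.4, 84.4 and 107 CPM at 15 months and 57.2, 10.4 and 42.0 CPM at 3 months (1.25 ± 0.35, edgeR adjusted p = 0.116), and their summed macrophage markers were higher at 15 months too, 10940 to 18040 CPM at 15 months and 4314 to 11710 CPM at 3 months. Cycling cells, whose macrophage markers are given above with Fcgr1, had 80.5, 124 and 353 CPM at 15 months and 27.2, 32.3 and 103 CPM at 3 months (1.67 ± 0.61, edgeR adjusted p = 0.427), which overlapped. Neutrophil-like cells had 158, 243 and 255 CPM at 15 months and 192, 53.2 and 165 CPM at 3 months (0.41 ± 0.37, edgeR adjusted p = 0.998). The low value of 3-month pool 2 rests on 10 cells with 10 UMIs of Fcgr1, Fcgr3 and Fcgr4 together. Over all its cells the unnamed cluster 9, which carried neutrophil markers, had 119 CPM of Fcgr4, against 217 CPM in neutrophil-like cells.

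T cell-like cells reached 203 and 1178 CPM of Fcgr4 in 15-month pools 2 and 3 and 541 and 116 CPM in 3-month pools 1 and 3, the 4 pools with at least 10 such cells. Their macrophage markers were all seen and summed to 12200 to 17910 CPM at 15 months and 24720 to 26610 CPM at 3 months, so these values stand beside macrophage RNA in the same barcodes, whose part in them was not tested. The 15-month pool that was high is the one rich in cluster 11. Of the others, 3-month pool 1, the next highest, held 0 cluster 11 cells, 15-month pool 2 held 5 and 3-month pool 3 held 3. NK cell-like cells, with macrophage markers at 336 to 640.3 CPM at 15 months and 104 to 4238 CPM at 3 months, had Fcgr4 at 0, 3.50 and 115 CPM at 15 months and 6.98, 0 and 15.5 CPM at 3 months.

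Fcer1g, the gamma chain that Fcgr1, Fcgr3 and Fcgr4 need for surface expression and signalling, was ordered non-classical monocyte-like, macrophage-like, neutrophil-like, NK cell-like, cycling, cDC2-like and stroma. Macrophage-like cells had 3011, 3379 and 4413 CPM at 15 months and 3323, 3252 and 4134 CPM at 3 months (log2 ratio -0.06 ± 0.17, edgeR adjusted p = 0.894). NK cell-like cells had 3319, 3099.6 and 3094 CPM at 15 months and 3518, 2949 and 3439 CPM at 3 months (-0.08 ± 0.12, edgeR adjusted p = 0.804). Both classes overlapped between ages. In cluster 5 they did not, with 3226, 3531 and 3521 CPM at 15 months and 3849, 4223 and 4075 CPM at 3 months, but the log2 ratio of -0.31 ± 0.09 did not pass (edgeR adjusted p = 0.349).

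Fcer1g rose in non-classical monocyte-like over macrophage-like cells (log2 ratio 0.25 ± 0.08, edgeR adjusted p = 0.0139), a call that DESeq2 did not make (adjusted p = 0.0511) and that was lost when the cells with the highest doublet scores were left out (edgeR adjusted p = 0.107). It fell in NK cell-like (-0.36 ± 0.10, edgeR adjusted p = 0.00556), cDC2-like (-0.69 ± 0.08, 7.88e-06), stroma (-2.34 ± 0.23, 9.35e-07) and B cell-like cells (-2.66 ± 0.36, 1.65e-05). At 1000 UMIs it was seen in 96.1% of NK cell-like and 93.6% of macrophage-like cells, against 19.1% of endothelial cell-like cells.

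Fcgr2b, the inhibitory receptor, was ordered macrophage-like, cDC2-like, cycling, non-classical monocyte-like, stroma, neutrophil-like and NK cell-like. Macrophage-like cells had 265, 346 and 222 CPM at 15 months and 343, 306 and 402 CPM at 3 months (log2 ratio -0.41 ± 0.19, edgeR adjusted p = 0.352), which overlapped. In cluster 5 the ages did not overlap: 368, 326 and 273 CPM at 15 months and 428, 399.9 and 424 CPM at 3 months, or 322 ± 47.5 CPM at 15 months and 417 ± 15.2 CPM at 3 months (SD, n = 3 pools each). The log2 ratio there was -0.45 ± 0.14 and did not pass (edgeR adjusted p = 0.337). Cluster 0 had more Fcgr2b than macrophage-like cells (0.73 ± 0.12, edgeR adjusted p = 2.93e-05), at 451, 593 and 492 CPM at 15 months and 459, 448 and 565 CPM at 3 months.

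Over macrophage-like cells, Fcgr2b fell in non-classical monocyte-like (-1.29 ± 0.15, edgeR adjusted p = 5.13e-08), cycling (-1.10 ± 0.12, 8.42e-07), neutrophil-like (-2.32 ± 0.30, 9.93e-12) and NK cell-like cells (-3.21 ± 0.26, 2.54e-10), and did not pass in cDC2-like cells (-0.26 ± 0.12, 0.0963), where it did at hashtag ratios 2 and 5 and with no filter on low counts. B cells are known for Fcgr2b as their only Fc gamma receptor. B cell-like cells had 211, 139.6 and 211 CPM at 15 months and 174 CPM in the single 3-month pool with at least 10 of them, and their fold below macrophage-like cells was smaller for Fcgr2b (-0.65 ± 0.23, edgeR adjusted p = 0.0355) than for the other 5 genes, which lay between -2.46 and -3.21; the difference between genes was not tested. At 1000 UMIs, Fcgr2b was seen in 15.5% of 265 B cell-like cells (11.6 to 20.3%; 58.1% unthinned, median 6318 UMIs), against 1.16% of theca or luteal cell-like cells (0.206 to 6.30%; 16.3% unthinned, median 15330 UMIs) and 10.4% of endothelial cell-like cells (6.07 to 17.4%), whose interval overlapped that of the B cell-like cells.

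The balance of activating and inhibitory UMIs was summed as Fcgr1, Fcgr3 and Fcgr4 over Fcgr2b in each pool, a count ratio that depends on the 3' capture of each gene. In macrophage-like cells it was 3.69, 3.00 and 6.96 at 15 months and 2.32, 2.74 and 2.35 at 3 months, and without cluster 11 it was 2.95, 2.96 and 3.21 at 15 months and 2.32, 2.68 and 2.31 at 3 months. In cluster 5 it was 3.15, 3.38 and 3.46 at 15 months and 2.84, 2.67 and 2.29 at 3 months. The 15-month pools lay above the 3-month pools in these 3 sets of cells, but not in cluster 1, which had 2.48, 2.26 and 2.45 at 15 months and 1.89, 2.71 and 2.54 at 3 months. The order was not particular to macrophage-like cells. It was also seen in cycling, non-classical monocyte-like and stroma cells, the last with 3.34, 2.52 and 2.71 at 15 months and 2.09, 0.833 and 1.95 at 3 months. All kept cells summed together had it as well, with 3.11, 2.71 and 4.92 at 15 months and 2.19, 2.31 and 1.93 at 3 months. How many ratios of other genes separate the ages in this way was not counted. In cDC2-like cells, NK cell-like cells and cluster 0 the ages overlapped. Neutrophil-like cells had 0 Fcgr2b UMIs in 3-month pools 2 and 3. The macrophage-like sets share most of their cells, and all sets were chosen with the single genes known, so no test is given. In cluster 11 it was 2856 against 23 UMIs in 15-month pool 3 and 410 against 0 UMIs in 15-month pool 1.

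Fcgrt was the member whose order was led by stroma, followed by macrophage-like, cDC2-like, cycling, non-classical monocyte-like, neutrophil-like and NK cell-like cells. The lead of stroma over macrophage-like cells was small, 0.13 in mean log2 CPM and seen in 4 of the 6 pools. The edgeR ratio given below, which uses TMM scaling, had the opposite sign. Macrophage-like cells had 184, 195 and 207 CPM of Fcgrt at 15 months and 109.9, 112 and 220.2 CPM at 3 months (log2 ratio 0.33 ± 0.26, edgeR adjusted p = 0.562). The high 3-month pool was the one with 243 of its 268 macrophage-like cells in cluster 5. Cluster 5 itself had 328, 280.2 and 262 CPM at 15 months and 271, 304 and 239 CPM at 3 months (0.03 ± 0.14, edgeR adjusted p = 0.980), while cluster 1 had 49.5, 46.5 and 70.4 CPM at 15 months and 19.2, 34.7 and 87.3 CPM at 3 months. Without 3-month pool 3 the ratio in the whole class was 0.72 and passed (edgeR adjusted p = 0.0259); the part of the cluster mix in it was not tested.

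Stroma or fibroblast-like cells had Fcgrt at 147, 224 and 213 CPM at 15 months and 149, 188 and 169 CPM at 3 months, and did not differ from macrophage-like cells past the threshold (log2 ratio -0.29 ± 0.15, edgeR adjusted p = 0.112). Their summed macrophage markers were 4314 to 18040 CPM, and the part of this RNA in their Fcgrt level was not tested. Stroma fell below macrophage-like cells at hashtag ratio 5 (-1.05, edgeR adjusted p = 3.68e-06), with a strict cell filter (-0.70, 0.000172), at cluster resolution 0.3 (-0.38, 0.0349) and without 3-month pool 2 (-0.40, 0.0247). cDC2-like cells did not pass either (-0.32 ± 0.13, edgeR adjusted p = 0.0731), but did in 7 of 16 alternatives, with ratios between -0.36 and -1.05. Whether Fcgrt lies below macrophage-like cells in these classes thus depended on the processing. Endothelial cell-like cells were lower (-1.03 ± 0.20, edgeR adjusted p = 0.000806), less than for any other member in that class, where Fcgr1, Fcgr3, Fcgr4 and Fcer1g lay between -3.06 and -3.59 and Fcgr2b at -1.91. Classical (-2.41 ± 0.23, edgeR adjusted p = 6.28e-11) and non-classical monocyte-like cells (-1.43 ± 0.19, 4.18e-07) fell below macrophage-like cells.

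Counted over the 6 genes, 6 differed from macrophage-like cells in non-classical monocyte-like cells, 3 in neutrophil-like, 6 in NK cell-like, 4 in cDC2-like (4 to 6 under the alternatives), 6 in cycling and 5 in stroma cells. The background share of genes called was 48.1%, 58%, 50.2%, 37.2%, 24.3% and 56.9% in the same order. In the classes tested over fewer pools it was 32.9% in classical monocyte-like cells (2 members called), 17.2% in T cell-like (5), 39.6% in B cell-like (6), 30.4% in mature dendritic cell-like (5) and 49.4% in endothelial cell-like cells (6), and 17.6% in cluster 0 (2). With such shares the calls place each receptor in the cell types but do not set the 6 apart from other genes. In the order of class levels, 36 pairs of neighbours were compared by an exact two-sided sign-flip permutation test over the 6 pools, whose smallest possible p is 0.03125. In 6 pairs all 6 pools went 1 way and reached it, but the smallest adjusted p was 0.1875: adjusted over 36 pairs this test could hardly pass, so it does not show that neighbours were alike. Those pairs were cDC2-like over cycling cells for Fcgr2b, macrophage-like over cycling, cycling over non-classical monocyte-like and cDC2-like over NK cell-like cells for Fcgr3, and non-classical monocyte-like over macrophage-like and cDC2-like over stroma cells for Fcer1g. Among neighbours that include macrophage-like cells, the edgeR test with the pool as a block called a difference for Fcgr1 and Fcgr3 with cycling cells (Fcgr3 log2 ratio -0.94 ± 0.11, edgeR adjusted p = 5.45e-06) and for Fcgr4 and Fcer1g with non-classical monocyte-like cells.

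**Figure D4:**
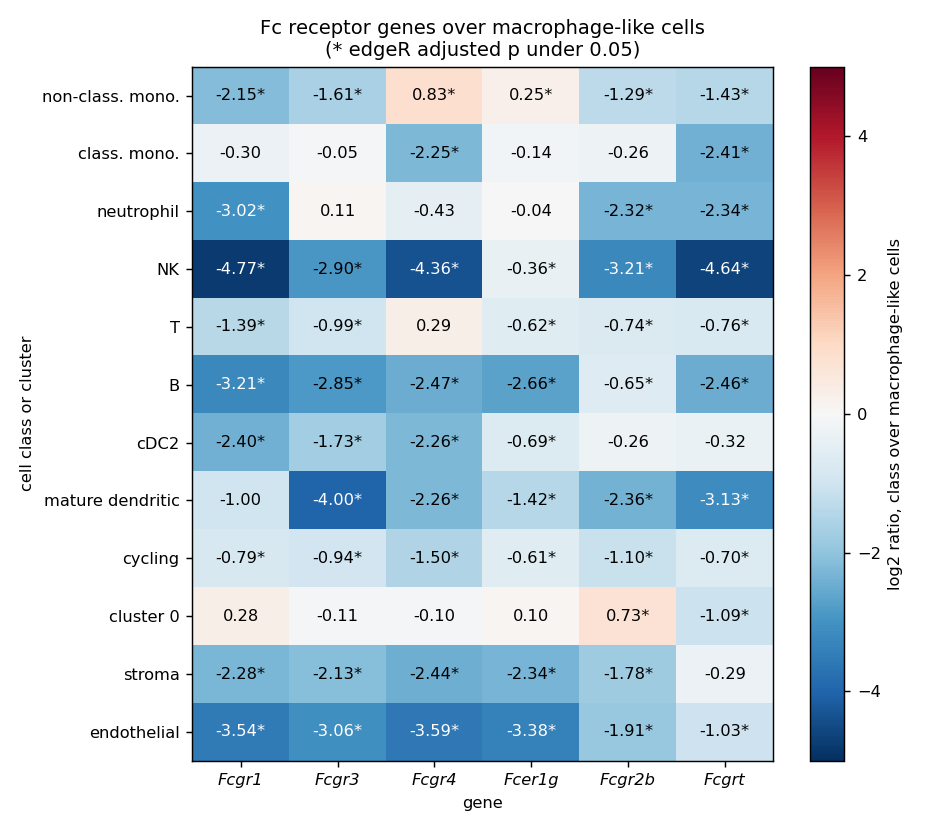
Each cell gives the edgeR log2 ratio of a class (rows) over macrophage-like cells for 1 gene (columns), with the pool as a block and an asterisk for adjusted p under 0.05. Of the 6 genes, those higher in non-classical monocyte-like cells are Fcgr4 (0.83) and Fcer1g (0.25), and NK cell-like cells keep Fcer1g, at -0.36, with the other 5 genes between -2.90 and -4.77.

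**Figure D5:**
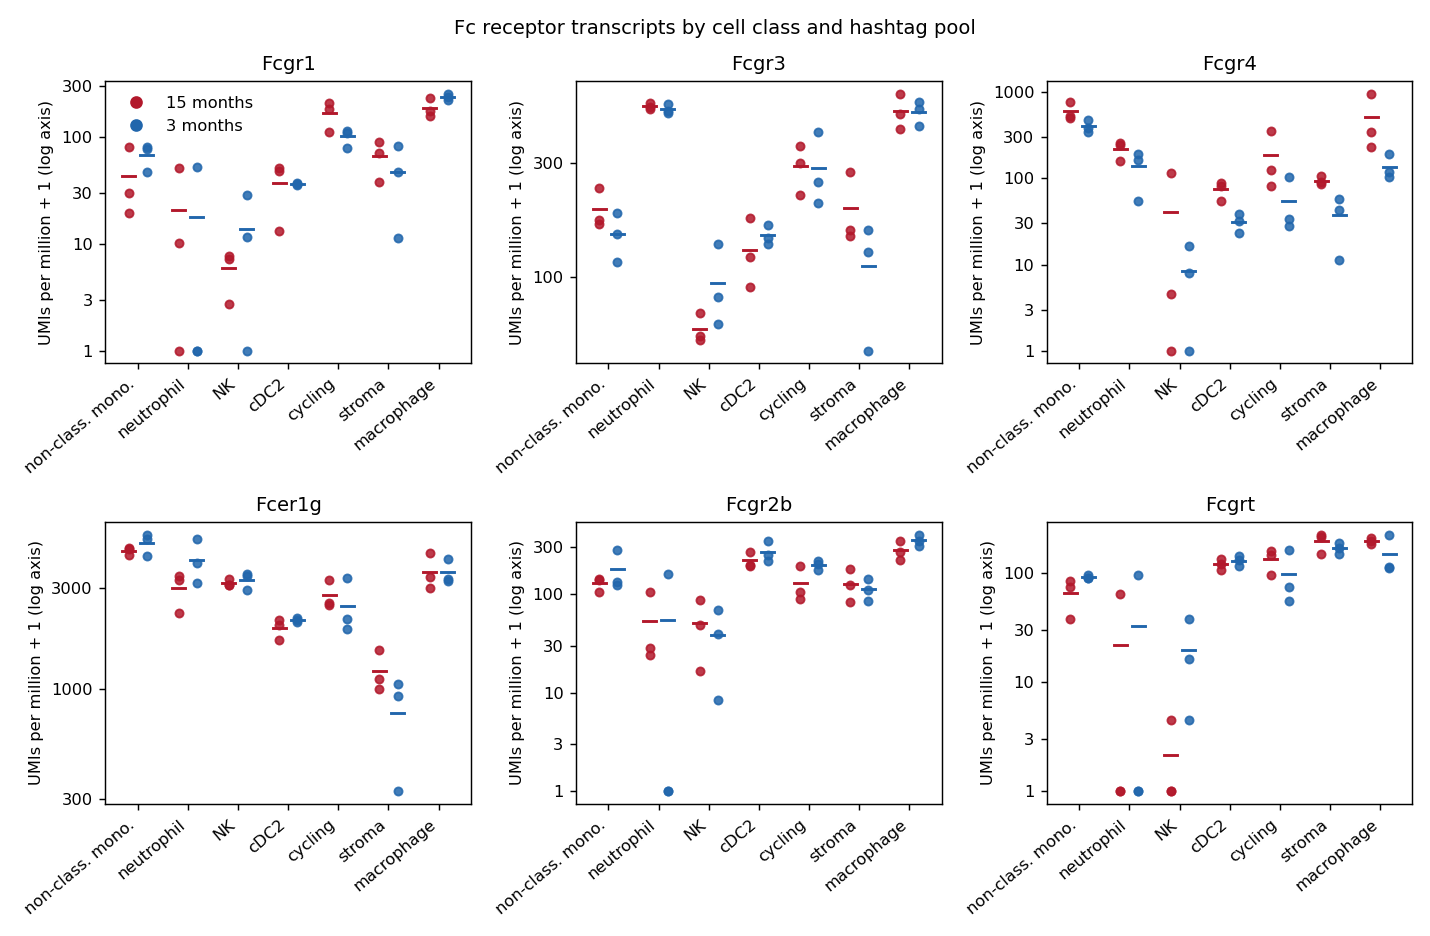
Points are CPM + 1 (log axis) in each hashtag pool for the 7 classes with at least 10 cells in all 6 pools, 15 months left of 3 months, and lines are means of 3 pools. The wide spread of Fcgr4 in macrophage-like cells at 15 months, 228 to 958 CPM, stands beside the narrow one of Fcer1g, 3011 to 4413 CPM.

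Whether the age ratio of a gene differed between a class and macrophage-like cells was tested as an interaction, and 0 members passed in any of the 6 classes (edgeR; DESeq2 was not run for it). The background share of genes called was 0.0436% for non-classical monocyte-like, 0.0803% for neutrophil-like, 0.412% for NK cell-like, 0.0206% for cDC2-like, 0.0302% for cycling and 0.035% for stroma cells. At an unadjusted p under 0.05 there were 2, 1, 3, 1, 1 and 4 members in that order. The lowest adjusted p values were those of Fcgrt in NK cell-like cells (difference of log2 ratios -3.04, edgeR adjusted p = 0.288) and Fcgr4 in non-classical monocyte-like cells (-1.03, 0.364). The first rests on 13 Fcgrt UMIs in all 410 NK cell-like cells, too few for Fcgrt to enter the age test of that class.

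Partners of the receptors were followed in lists of the pathway, and in macrophage-like cells 0 genes of any list passed in either direction (edgeR; 0.0671% of all genes did). Of the activating signalling list, 18 of 18 genes were measured, 15 with a positive log2 ratio and a median of 0.15, against 0.01 over all genes. Without cluster 11 the shift was smaller: 10 of the 18 were positive, with a median of 0.02. Syk, the kinase that docks on the gamma chain, averaged 150.0 ± 20.3 CPM at 15 months and 98.9 ± 9.69 CPM at 3 months (log2 ratio 0.53 ± 0.15, edgeR adjusted p = 0.259). The exchange factor gene Vav1 gave 0.37 and the adaptor gene Gab2 0.53. Of the inhibitory list 8 of 8 were measured, 6 positive with a median of 0.36: the adaptor gene Pag1 gave 0.87, the ubiquitin ligase gene Cblb 0.85 and the phosphatase gene Ptpn6 0.50 (225 ± 55.7 CPM at 15 months and 151 ± 17.5 CPM at 3 months). With cluster 11 left out, 6 of the 8 were still positive, with a median of 0.22. Ptpn6 was at 480 and 556 CPM in the cluster 11 pools, against 188 to 215 CPM in cluster 5 at 15 months.

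Of 10 other receptors that pair with the gamma chain 6 were measured (median -0.14), among them Cd300lb at -0.79, Pira2 at 0.83 and Clec4d at -0.45. Of 11 genes of phagocytic uptake and the oxidase all were measured (median -0.09), with Dock2 at 0.27, Ncf4 at -0.29 and Cybb, the catalytic subunit of the oxidase, at 0.31. Of 6 FcRn partner and trafficking genes 5 were measured (median -0.08), with B2m, the light chain of FcRn, at 0.26 ± 0.16 (edgeR adjusted p = 0.464), Rab11a at -0.33 and Ap2m1 at -0.34. Of 6 IgG and B cell transcripts 0 had enough counts in these cells.

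Of 11 further Fc receptor genes 3 were measured, with a median of 0.30. With cluster 11 left out, 2 were measured, with a median of -0.0004. Trim21, a cytosolic antibody receptor, gave 0.30 and Fcrls, an Fc receptor-like gene, -0.47. Fcrl5, an Fc receptor-like gene, gave 3.71 ± 1.44 (edgeR adjusted p = 0.290), with 20.03, 1.23 and 74.8 CPM at 15 months and 0, 2.23 and 4.502 CPM at 3 months. Only 15-month pools 1 and 3, those with 20 or more cluster 11 cells, stood above the 3-month pools, and within cluster 11 they had 300.8 and 324 CPM, against 0.546 to 3.08 CPM in cluster 5 at 15 months. Fcrls went the other way between the clusters, at 0 and 2.68 CPM in cluster 11 and 233 to 263 CPM in cluster 5 at 15 months.

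The genes whose levels over the 7 classes were most like each receptor were named by Pearson's r of log2(mean CPM + 1), a description over 7 points that share pools and libraries, among 4851 genes. For Fcgr1 they were Gdf15 (r = 0.992), Lgmn (0.988) and Pla2g15 (0.985). For Fcgr3 they were Gla (0.978), Ninj1 (0.971) and Gabarap (0.971), and for Fcgr4 they were Ifnar2 (0.987), Sat1 (0.977) and F10 (0.975). Fcer1g was most like Efhd2 (0.951), Mapkapk3 (0.946) and Wdr1 (0.946), with a lower top value than the other members. Fcgr2b was most like Rasgef1b (0.978), Ms4a6d (0.977) and Pltp (0.970), and Fcgrt most like Cmtm3 (0.993), Pgap2 (0.984) and Nrp1 (0.978). Mapkapk3 and Wdr1 had Spearman's rho of 0.75 and 0.786 only.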

How the data were processed

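The authors deposited raw UMI counts from 2 Chromium 3' libraries of sorted ovarian cells, with 3 hashtag counts in each matrix. Per the file headers the matrices came from Cell Ranger 4.0.0, whereas the submitters' processing notes name Cell Ranger 7.0.0 and mm10; the version used is not settled. Barcodes with a top hashtag of at least 10 counts and 3 times the next, 500 genes, 1000 UMIs and no more than 10% of UMIs from mitochondrial genes were kept. They were clustered with scanpy 1.11.5 and leidenalg 0.10.2 (2000 variable genes, 30 components, 15 neighbours, resolution 0.6) and named by markers, with naming limits set after the clusters were seen. Doublets within a pool carry 1 hashtag and stay in; scrublet marked 3 cells in each library, too few to have worked. UMIs were summed by class and pool and tested with edgeR 4.0.16 (filterByExpr, TMM, R 4.3.3), and with DESeq2 1.42.0 as an alternative. Classes needed 10 cells in each pool; cluster 0, clusters 1 and 5 and 5 smaller classes were added after seeing the data. On simulated counts for macrophage-like cells (8800 genes, 15 against 3 months), edgeR called 93.8% of genes changed by 2 on the log2 scale, 43.2% of those changed by 1 and 0.116% of unchanged ones. The members and lists were chosen with earlier results of these data known. Named genes were the members, the 3 most alike by r and, of each list, the 3 with the smallest p for age in macrophage-like cells; other genes were named after their values were seen.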

Additional observations from a re-analysis of the deposited data

How the results depend on the processing

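Of 323 age ratios under alternative settings, 8 newly passed and 13 turned sign, and the others kept direction and side of the threshold. Of the class ratios over macrophage-like cells, 19 newly passed, 5 no longer passed, 14 turned sign and 586 kept both. Thinning to 2000 in place of 1000 UMIs a cell, which also left out cells with fewer than 2000 UMIs, moved 47 shares of cells with a UMI, all upward, and left 7 within their interval. The number of members past the age test, 0 in the main analysis, was 1 in macrophage-like cells with the replicate block (Fcgr4, 1.62), with no filter on low counts, and without 3-month pool 3 (Fcgrt, 0.72; the other pools left out gave 0, a range of 0 to 1). With no filter it was also 1 in cDC2-like and 1 in cycling cells and 3 in stroma, and with Fc receptor genes in the clustering 1 in stroma. Leaving out 1 pool gave 4 to 13 called genes in macrophage-like cells, where 6 were called, except 402 without 3-month pool 3; DESeq2 gave 64 and no filter 140; the block gave 31 there, 112 against 8 in cluster 5 and 81 against 25 in NK cell-like cells. Same-numbered pools of the 2 ages deviated together with every correlation over 0.1 in NK cell-like cells and cluster 5 only, and in macrophage-like cells at -0.20, 0.24 and 0.27, so the numbers were not taken as pairs.

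Age ratios that turned sign were all uncalled. Fcgr4 in cluster 5 ranged from -0.0055 to 0.366 with 1 pool left out (below 0 without 3-month pools 2 or 3), and was -0.0242 at hashtag ratio 2, -0.012 with a strict cell filter and -0.09 without the highest 8% of doublet scores, which gave -0.2856 in cDC2-like cells. In macrophage-like cells Fcer1g ranged from -0.2336 to 0.0528 with 1 pool left out (above 0 without 15-month pool 1 or 3-month pool 3), Fcgrt was -0.1462 at hashtag ratio 5, and Fcgr3 was 0.0428 without 15-month pool 3, 0.006 at hashtag ratio 2, 0.0019 with Fc receptor genes in the clustering and 0.0284 without cluster 11. Of neutrophil-like over macrophage-like ratios, Fcgr3 was -0.2282 with RLE scaling, -0.2138 with DESeq2, -0.0166 and -0.0849 at resolutions 0.3 and 1.0 and -0.1816 at hashtag ratio 5. Fcer1g there ranged from -0.1049 to 0.0497 with 1 pool left out (above 0 without 15-month pools 2 or 3), and was 0.0484 and 0.0171 at hashtag ratios 2 and 5, 0.1605 with Fc receptor genes in the clustering and 0.0174 without scrublet calls, and Fcgr4 was 0.0367 at hashtag ratio 2 and 0.2453 with Fc receptor genes in the clustering. Fcgrt in stroma over macrophage-like cells was 0.0233 at hashtag ratio 2. The cause of these turns was not tested. With 3 pools of an age, a change by 1 on the log2 scale would often be missed, and levels near 1 UMI a cell limit the shares.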
